A study of Homo sapiens with 12 samples.

Results

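Temozolomide methylates DNA, and the 8 genes described here encode proteins that undo, recognise or excise the resulting lesions: MGMT and ALKBH2 (direct reversal), MSH6 and PMS2 (mismatch repair), and MPG, APEX1, XRCC1 and PARP1 (base excision and single-strand break repair). They were taken by symbol from a table of 20289 genes, and each symbol matched exactly 1 row. The rule names them by their known roles and uses no measured value, but the genes were chosen with earlier results of these data known. RNA came from the human glioblastoma line U251, and 3 libraries represented each of 4 groups. Control DMSO cells carried a non-targeting control hairpin (shCtrl) delivered by lentivirus and received the solvent DMSO for 24 h, and knockdown DMSO cells carried a hairpin against CD44, the surface receptor for hyaluronan (shCD44), with the same solvent. Control temozolomide and knockdown temozolomide cells received 50 µM temozolomide for 24 h. The titles of the control temozolomide libraries read NC, their genotype label equals that of the control DMSO libraries, and they were read as control-hairpin cells. All groups therefore share the cell line and the lentiviral transfer, and the knockdown is a partial one made by 1 labelled hairpin. No label ties the 3 libraries of a group to separate cultures, so the errors and p-values below measure the spread between these libraries, which may be technical.

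Of the lesions that temozolomide leaves, the methyl group on the oxygen of guanine is the toxic one. MGMT transfers that group to one of its own cysteines in a single, self-consuming step. Where MGMT is missing, the methylated guanine pairs with thymine at replication, the mismatch is recognised by a heterodimer that contains MSH6 and nicked by a heterodimer that contains PMS2, and repeated rounds of this repair lead to strand breaks, so that mismatch repair is required for the drug to kill. The more frequent methyl groups on ring nitrogens are cut out by base excision repair: the glycosylase MPG removes the base, the endonuclease APEX1 cuts the backbone, and PARP1 and the scaffold XRCC1 handle the open strand. ALKBH2 is an iron-dependent dioxygenase that strips methyl groups from single nitrogens of adenine and cytosine. Glioblastoma lines often lack MGMT RNA through methylation of the CpG-rich promoter, which was not measured here.

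Library totals ran from 13506946 to 24757977 estimated counts, and no 2 libraries held identical columns. CD44 RNA, the check of the hairpin, fell by 1.38 on the log2 scale with the CD44 hairpin in solvent (SE 0.03) and by 1.33 with the drug (SE 0.03). Temozolomide also lowered CD44 RNA, by 0.41 in control cells and by 0.36 in knockdown cells (SE 0.03 each). Of 10 glioma and astrocyte markers, 7 reached a mean of 1 FPKM, among them SOX2, NES and VIM, while GFAP (0.499 FPKM), S100B (0.222 FPKM) and OLIG2 (1 count in all) did not. The leukocyte markers CD3E and AIF1 had 0 counts, EPCAM and CDH1 had 10 and 5 counts in all, while the epithelial markers KRT8, KRT18 and CLDN4, the endothelial CDH5, the leukocyte marker CD68 and the neuronal SYT1 were above 1 FPKM. The summed FPKM of the 5 epithelial markers was 325 to 335 in control DMSO, 257 to 272 in knockdown DMSO, 267 to 286 in control temozolomide and 196 to 230 in knockdown temozolomide. By mean counts scaled to library size (CPM), APEX1, PARP1, ALKBH2 and MPG, below, were also highest in the first and lowest in the last of these groups. MSH6, PMS2 and XRCC1 were not. The 4 endothelial markers summed to 11.1 to 12.2 FPKM, 7.8 to 8.04, 5.47 to 6.55 and 3.72 to 3.96 in the same order of groups. The mean CPM of APEX1, ALKBH2 and PARP1 stepped down in this order too, and that of MSH6, PMS2, MPG and XRCC1 did not. The other sums were higher with the CD44 hairpin under both treatments. Glioma and astrocyte markers had 1980 to 2071 FPKM in control and 2254 to 2282 in knockdown cells under DMSO, and 1576 to 1657 against 1883 to 1997 under temozolomide. Leukocyte markers had 8.86 to 12.8 against 16.5 to 18.3 FPKM under DMSO and 10.1 to 10.9 against 18.2 to 18.9 under temozolomide. Neuron markers had 1 to 1.04 against 1.81 to 2.47 FPKM and 0.97 to 1.21 against 2.01 to 2.22. The part of these markers in the results was not tested. In bulk RNA, fewer cells with a transcript and less of it per cell cannot be told apart.

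The genes lie on different chromosomes of GRCh38, by an annotation joined on gene ID, whose build the files do not state. MGMT (ENSG00000170430) spans chr10:129467184-129768007 on the plus strand and ALKBH2 (ENSG00000189046) chr12:109088188-109093631 on the minus strand. MSH6 (ENSG00000116062) spans chr2:47695530-47810101 on the plus strand and PMS2 (ENSG00000122512) chr7:5973239-6009125 on the minus strand. MPG (ENSG00000103152) is at chr16:77007-85853 and APEX1 (ENSG00000100823) at chr14:20455191-20457772, both on the plus strand. XRCC1 (ENSG00000073050) is at chr19:43543040-43580473 and PARP1 (ENSG00000143799) at chr1:226360691-226408079, both on the minus strand. The library kit named in the labels was counted without a stated strand setting, so reads in exons shared with an opposite gene cannot be assigned by strand. Such overlap covers 27.3% of the annotated exonic bases of MPG (with NPRL3) and 16.2% of those of MSH6 (with FBXO11). MSH6 and MPG are also the only ones of the 8 genes whose estimated counts held fractions, in 12 of 12 libraries each. XRCC1 shares 6.48% of its exonic bases with L34079.1, a protein-coding gene on the same strand that is also in the count table, so that strand could not separate their reads. Transcripts on the opposite strand overlap 15.5% and 1.97% of XRCC1 exonic bases, 8.04% of those of MGMT and 2.86% of those of APEX1 (with PIP4P1). PMS2 has 11 copies by name in the annotation (PMS2CL and PMS2P genes), 0 of which are in the count table, and its counts were whole numbers in every library (PARP1 has 2 such copies, also 0 in the table). Its level is therefore uncertain to the extent that reads from those copies were placed on it.

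Promoter sequence is shown for the gene without RNA, MGMT, and for MSH6, PMS2 and APEX1, whose RNA differed most clearly between groups. The bases come from RefSeq (GRCh38.p14), from the 250 bases before the annotated start (the first entry where there are several), trimmed to the longest stretch outside annotated untranslated regions, and are written 5′ to 3′ on the gene's strand with CG dinucleotides in capitals. RefSeq held promoters for 8 of the 8 genes in 12 entries. The stretches are chr10:129466991-129467183 (plus strand) for MGMT, chr2:47782895-47783081 (plus) for MSH6, chr7:6009126-6009244 (minus) for PMS2 and chr14:20455106-20455190 (plus) for APEX1. The MSH6 stretch lies inside the gene span given above, whose annotated start is upstream of this RefSeq entry.
MGMT: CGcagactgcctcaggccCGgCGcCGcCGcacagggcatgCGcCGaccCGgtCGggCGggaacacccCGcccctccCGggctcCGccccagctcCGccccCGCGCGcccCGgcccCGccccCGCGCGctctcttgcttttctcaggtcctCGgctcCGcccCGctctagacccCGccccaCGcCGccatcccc
MSH6: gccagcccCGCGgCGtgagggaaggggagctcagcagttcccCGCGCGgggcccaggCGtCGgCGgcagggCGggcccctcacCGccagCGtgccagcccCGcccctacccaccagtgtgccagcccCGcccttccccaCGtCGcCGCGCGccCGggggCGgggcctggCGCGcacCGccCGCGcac
PMS2: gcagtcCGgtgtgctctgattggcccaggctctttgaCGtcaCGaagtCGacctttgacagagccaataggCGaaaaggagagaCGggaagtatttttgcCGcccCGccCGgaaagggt
APEX1: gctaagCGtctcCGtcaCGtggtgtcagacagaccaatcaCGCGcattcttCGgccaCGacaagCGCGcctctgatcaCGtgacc
The full 250-base window held 36 CG dinucleotides for MGMT and 34 for MSH6, more than 95.1% and 93.2% of the 35116 promoters in the RefSeq table, whose median was 11. PMS2 held 22 and APEX1 16, above 72.0% and 59.0% of promoters. Matches to the GC box GGGCGG, searched on both strands with overlapping matches counted, numbered 8 in the MGMT window, 5 in that of MSH6, 2 in that of PMS2 and 0 in that of APEX1, and 42.6% of all promoters held at least 1. The CCAAT motif, also on both strands, matched 2 times in PMS2, once in MSH6 and APEX1 and not in MGMT (32.0% of all promoters). None of the 4 windows matched the E2F motif TTTNGCGC (1.5% of all) or TATAAA (10.7% of all). These counts describe letters in a window and say nothing of binding.

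On the FPKM scale, which divides by transcript length and so allows genes to be compared, the 8 genes fell into 3 levels. APEX1 (73.4 to 97.4 FPKM over the 12 libraries) and PARP1 (78.7 to 87.1) were highest, above 93.4% and 93.0% of tested genes by mean level, and MSH6 followed (47.3 to 59.3 FPKM). Their order was APEX1 before PARP1 in both DMSO groups and PARP1 before APEX1 in both temozolomide groups. The second level held MPG (10.1 to 15.4 FPKM), XRCC1 (9.99 to 13.9), ALKBH2 (8.18 to 12.4) and PMS2 (8.42 to 12.2), whose ranges overlapped with those of their neighbours in the order. MGMT stood apart, listed at 0 in 11 libraries and at 0.04 FPKM in 1.

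**Figure D1:**
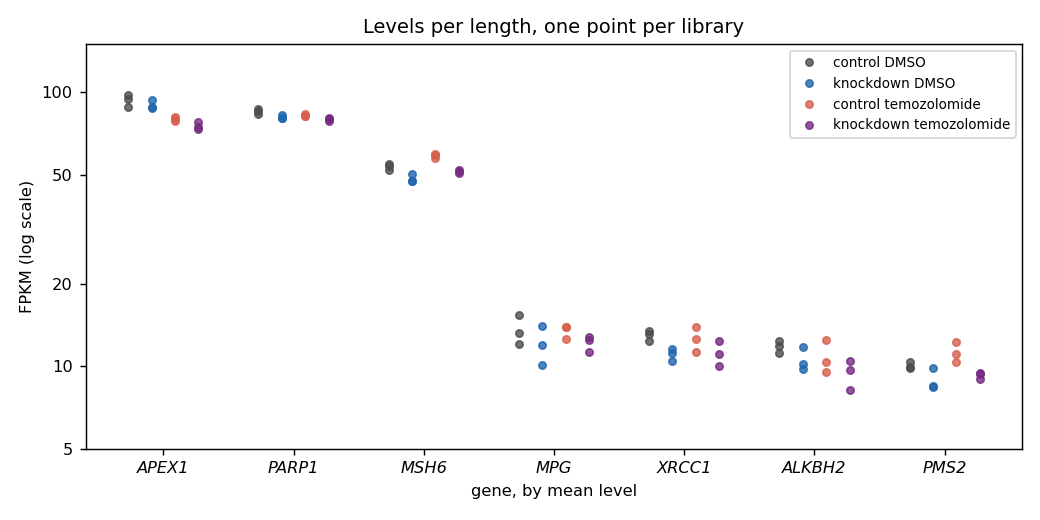
FPKM (log axis) of the 7 detected genes, ordered by mean level, with one point per library and colours for the 4 groups. APEX1, PARP1 and MSH6 sit between 47.3 and 97.4 FPKM and the other genes between 8.18 and 15.4. MGMT is not drawn because 11 of its 12 values are 0.

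MGMT, the suicide methyltransferase, had 0 counts in 11 libraries and 1 count in the remaining one, knockdown temozolomide 2. Summed over the 12 libraries this is 1 count in 208294398, or 0.0048 CPM (counts scaled to library size), with an exact Poisson 95% interval of 0.000122 to 0.0267 CPM that covers counting error only. A floor of 3 counts corresponds to 0.121 to 0.222 CPM in a single library. MGMT did not pass the filter on low counts, so no fold change or test is given for it, and the remaining 7 genes were tested. All later values for single genes are in CPM after trimmed-mean (TMM) scaling unless stated, and "edgeR adjusted p" stands for the p-value of the edgeR quasi-likelihood F-test after Benjamini-Hochberg adjustment over 12821 tested genes, called below 0.05.

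ALKBH2, the other direct-reversal enzyme, had 13.6, 12.2 and 12 CPM under DMSO with the control hairpin and 11.7, 11 and 10.4 with the CD44 hairpin. Under temozolomide the values were 10.7, 9.50 and 11.8 CPM with the control hairpin and 8.02, 9.41 and 10.2 with the CD44 hairpin. In CPM the knockdown DMSO and control temozolomide libraries all lay below those of control DMSO. The knockdown temozolomide group had the lowest mean, 73.1% ± 8.72 of the control DMSO mean (SD, n = 3). In FPKM the groups overlapped: the control DMSO libraries had 12.4, 11.2 and 11.85, control temozolomide 3 had 12.45 and knockdown DMSO 1 had 11.76. All 4 fold changes were negative, from -0.19 to -0.26 on the log2 scale, and none passed the threshold over all genes. The closest was temozolomide in knockdown cells, at -0.26 (95% interval -0.49 to -0.03, edgeR adjusted p = 0.0985). With 134 to 268 counts per library, counting error alone averaged 7.38% for ALKBH2, against a spread within groups of 9.25%, so changes of this size were at the limit of what the depth could show.

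**Figure D2:**
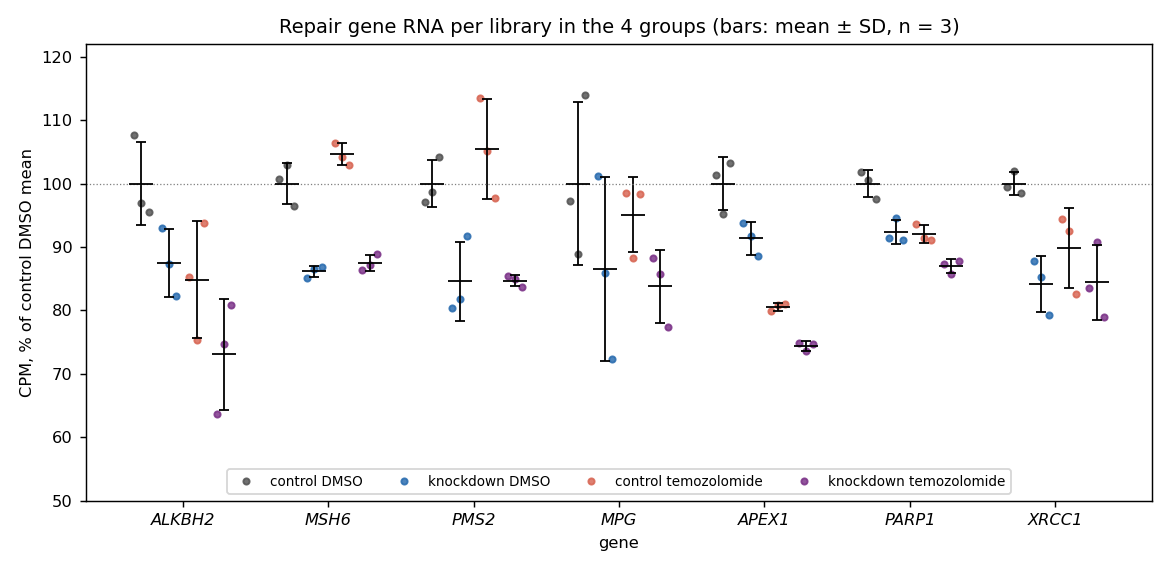
CPM of the 7 detected genes as percent of their own control DMSO mean. Points are libraries, and black bars give mean ± SD (n = 3). The knockdown groups of MSH6 and PMS2 have means of 84.6% to 87.5%, and APEX1 has 74.4% in knockdown temozolomide. The spread is widest for MPG and ALKBH2.

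MSH6 and PMS2, one from each of the heterodimers of mismatch repair, were lower with the CD44 hairpin under both treatments. MSH6, which recognises mispaired bases, had 232, 237 and 223 CPM under DMSO with the control hairpin and 196, 200 and 200 with the CD44 hairpin. Under temozolomide it had 246, 241 and 238 CPM with the control hairpin and 199, 201 and 205 with the CD44 hairpin. Every knockdown library was below every control library under either treatment. The fold change was -0.21 under DMSO (SE 0.03, edgeR adjusted p = 2.69e-05) and -0.26 under temozolomide (SE 0.03, edgeR adjusted p = 2.18e-06), percent changes of -13.8 and -16.4. Corrected for GC content, which for the MSH6 transcript is 40.8%, the fall under DMSO was -0.27. With library totals alone the values under DMSO and temozolomide were smaller, -0.17 and -0.22. Over all alternative runs they ranged from -0.27 to -0.14 and from -0.27 to -0.18, and stayed called. The mean FPKM under DMSO was 53.5 with the control hairpin and 48.4 with the CD44 hairpin. FBXO11, which shares exons with MSH6, had log2 fold changes of 0.08 and 0.03 in these comparisons (edgeR adjusted p = 0.128 and 0.562).

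PMS2, the endonuclease subunit that nicks the strand, had 38.6, 39.2 and 41.4 CPM under DMSO with the control hairpin and 31.9, 32.5 and 36.4 with the CD44 hairpin. With the drug PMS2 had 45.1, 41.7 and 38.8 CPM with the control hairpin and 33.9, 33.7 and 33.2 with the CD44 hairpin. As for MSH6, the knockdown libraries lay below the control libraries in CPM without overlap under both treatments. In FPKM the DMSO groups of PMS2 overlapped, with knockdown DMSO 3 at 9.85 and control DMSO 1 at 9.83. PMS2 fell by 0.24 on the log2 scale under DMSO (SE 0.06, edgeR adjusted p = 0.00489) and by 0.32 under temozolomide (SE 0.06, edgeR adjusted p = 0.000283), the largest fall of the 7 genes with knockdown under temozolomide. On the FPKM scale the value under DMSO was -0.16 and was not called (limma adjusted p = 0.108 on log2(FPKM + 1)). The ratio of MSH6 to PMS2 in FPKM was 5.33 ± 0.285, 5.46 ± 0.286, 5.24 ± 0.365 and 5.53 ± 0.176 (control and then knockdown cells under DMSO, then the same under temozolomide; SD, n = 3), with differences within the spread between libraries.

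Temozolomide itself gave no called change in either mismatch repair gene. In control cells MSH6 differed by 0.07 (95% interval -0.0035 to 0.13, edgeR adjusted p = 0.155), although the 3 drug-treated libraries lay just above the 3 untreated ones. That value was 0.13 and called with library totals in place of TMM scaling (edgeR adjusted p = 0.00358) and on the FPKM scale (limma adjusted p = 0.0208), and it was -0.0015 after the correction for GC content. PMS2 differed by 0.08 in control cells (95% interval -0.05 to 0.21, edgeR adjusted p = 0.356). In knockdown cells the values were 0.02 for MSH6 (95% interval -0.05 to 0.09) and -0.0018 for PMS2 (95% interval -0.14 to 0.13).

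Of the base excision genes, APEX1 showed the clearest response to the drug. APEX1, the main endonuclease at abasic sites, had 138, 130 and 141 CPM under DMSO with the control hairpin and 128, 125 and 121 with the CD44 hairpin. After temozolomide APEX1 stood at 109, 110 and 110 CPM with the control hairpin and 102, 100.2 and 102 with the CD44 hairpin. In CPM no library of one group overlapped another group, and the means stepped down in the order control DMSO, knockdown DMSO, control temozolomide, knockdown temozolomide. In FPKM the DMSO groups overlapped, with knockdown DMSO 1 at 93.73 and control DMSO 2 at 88.69. Temozolomide lowered APEX1 by 0.31 in control cells (SE 0.04, edgeR adjusted p = 3.3e-06) and by 0.30 in knockdown cells (SE 0.04, edgeR adjusted p = 9.25e-06), percent changes of -19.5 and -18.5. Only 16.3% and 16.1% of tested genes had a larger absolute change in these comparisons. The falls with knockdown were smaller, 0.13 under DMSO (SE 0.04, edgeR adjusted p = 0.00763) and 0.11 under temozolomide (SE 0.04, edgeR adjusted p = 0.0208). These 2 calls were lost with library totals alone (-0.09 and -0.08) and on the FPKM scale (-0.05 and -0.08). The call under DMSO was also lost without control DMSO 3 or knockdown DMSO 3 (both -0.11), and that under temozolomide without control temozolomide 2, control temozolomide 3 or knockdown temozolomide 2 (-0.11 each).

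PARP1, which senses strand breaks and builds poly(ADP-ribose) chains, had 359, 354 and 344 CPM under DMSO with the control hairpin and 322, 333 and 321 with the CD44 hairpin. With temozolomide PARP1 had 330.0, 322 and 321 CPM with the control hairpin and 308, 302 and 309 with the CD44 hairpin. In CPM control DMSO libraries were highest and knockdown temozolomide libraries lowest, with the other groups between and overlapping each other. In FPKM control temozolomide 1 (83.59) was above control DMSO 3 (83.45), and knockdown temozolomide 1 (80.34) above knockdown DMSO 3 (80.24). PARP1 fell by 0.11 with knockdown under DMSO (edgeR adjusted p = 0.00584), by 0.08 with knockdown under temozolomide (edgeR adjusted p = 0.0383) and by 0.12 with temozolomide in control cells (edgeR adjusted p = 0.00729), each with an SE of 0.03. In knockdown cells the drug gave -0.09 (95% interval -0.15 to -0.02, edgeR adjusted p = 0.0511). The 3 called falls are percent changes of -7.6, -5.6 and -7.89, and 52.6% to 71.7% of tested genes had a larger absolute change in the same comparisons. Scaling by library totals alone, which moved the median of all genes by 0.04 to 0.07 in these comparisons, gave PARP1 -0.07, -0.05 and -0.05 and ended all 3 calls, as did the FPKM scale. The call for the drug in control cells was lost without control DMSO 1 (-0.10), and that for knockdown under temozolomide was lost without any one of the control temozolomide libraries or without knockdown temozolomide 1 or 2 (-0.07 to -0.09).

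XRCC1, the scaffold that holds ligase and polymerase at a break, had 25, 25.7 and 24.8 CPM under DMSO with the control hairpin and 22.1, 21.4 and 19.9 with the CD44 hairpin. Under the drug XRCC1 had 23.7, 23.3 and 20.8 CPM with the control hairpin and 21.0, 22.8 and 19.9 with the CD44 hairpin. In CPM the 3 control DMSO libraries were above the 9 others. In FPKM control temozolomide 2 had 13.91, above the control DMSO libraries (12.38 to 13.43). The fall with knockdown under DMSO was 0.25 on the log2 scale (SE 0.08, edgeR adjusted p = 0.0101), a change of -16.1%. It was not called without knockdown DMSO 3 (-0.21), after the correction for GC content (-0.17) or on the FPKM scale (-0.21). Under temozolomide the same comparison gave -0.09 (95% interval -0.24 to 0.07, edgeR adjusted p = 0.376).

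MPG, the glycosylase that starts the pathway, had 14.3, 13 and 16.7 CPM under DMSO with the control hairpin and 14.8, 12.6 and 10.6 with the CD44 hairpin. After the drug the values of MPG were 14.4, 12.9 and 14.4 CPM with the control hairpin and 12.9, 12.6 and 11.3 with the CD44 hairpin. Its spread within groups was the widest of the 7 genes, at 11.5%, and it passed the threshold in no comparison, and the groups under temozolomide touched at 12.9 CPM. The value for knockdown under DMSO was -0.22 (95% interval -0.46 to 0.02, edgeR adjusted p = 0.126). Single libraries moved it both ways: it was -0.35 and called without knockdown DMSO 1 (edgeR adjusted p = 0.0253), -0.10 without knockdown DMSO 3 (edgeR adjusted p = 0.552) and -0.12 without control DMSO 3 (edgeR adjusted p = 0.5). It was -0.07 after the correction for GC content, which for the MPG transcript is 65.6%, the highest of the 8 genes. With each gene centred on its own mean over the 12 libraries, genes above 60% GC were compared with those under 40%. On this relative scale they stood higher by 0.07 to 0.21 log2 units in the control DMSO libraries. In the knockdown DMSO libraries they stood lower by 0.04 to 0.10. The difference ran from -0.13 to 0.04 in control temozolomide and from -0.12 to 0.07 in knockdown temozolomide.

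Counted together, 5 of the 7 tested genes fell with knockdown under DMSO (MSH6, PMS2, APEX1, PARP1, XRCC1) and 0 rose. The threshold was passed by 42.6% of all tested genes in that comparison, 21.1% upward and 21.4% downward, and scaling by library totals alone turned the split over all genes from 2710 higher and 2748 lower to 3387 and 2167. The median of the 7 genes was -0.21, and that of all tested genes -0.0014. With knockdown under temozolomide 4 fell (MSH6, PMS2, APEX1, PARP1) and 0 rose, with a median of -0.18, beside 42.3% of all genes called, 22% upward and 20.3% downward (2823 and 2603 genes, or 3457 and 2126 with library totals). Temozolomide lowered 2 of the 7 in control cells (APEX1, PARP1; median -0.12), where 27.5% of genes were called, 11.7% upward and 15.8% downward (1505 and 2024 genes, or 2870 and 1295 with library totals). In knockdown cells it lowered 1 (APEX1; median -0.03), where 22.3% were called, 9.05% upward and 13.2% downward (1160 and 1694 genes, or 2533 and 1078 with library totals).

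**Figure D3:**
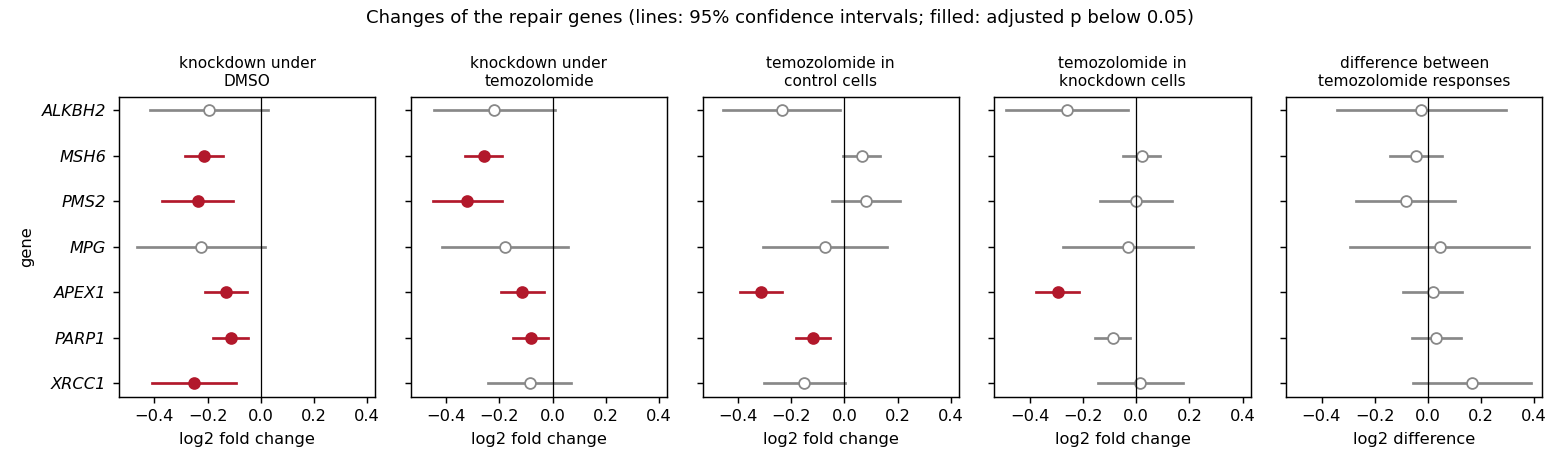
Log2 fold changes of the 7 tested genes in the 4 comparisons of a pair of groups, and the difference between the temozolomide responses, with 95% confidence intervals as lines. Filled red points have an edgeR adjusted p below 0.05. With knockdown 5 and 4 points are filled, with temozolomide 2 and 1, and none in the last panel.

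Whether the response to temozolomide depended on the hairpin was tested as the difference between the 2 responses. It passed the threshold for 0 of the 7 genes by edgeR, with 0 at an unadjusted p below 0.05, 0 by limma and 0 by DESeq2, which gave no adjusted p for ALKBH2, MPG and XRCC1, while edgeR called 1.05% of all tested genes. The differences, as response in knockdown minus response in control cells, were 0.02 for APEX1 (95% interval -0.10 to 0.13), 0.03 for PARP1 (-0.06 to 0.12), -0.04 for MSH6 (-0.14 to 0.05) and -0.08 for PMS2 (-0.27 to 0.10). The intervals were wider for XRCC1, at 0.17 (-0.06 to 0.39), MPG, at 0.04 (-0.29 to 0.38), and ALKBH2, at -0.03 (-0.34 to 0.29), and leave room for differences as large as the changes described above.

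The remaining genes of the same pathways moved in both directions. Of 21 other mismatch repair genes, all tested, 8 fell and 4 rose with knockdown under DMSO (median -0.07), and 7 fell and 4 rose under temozolomide (median -0.04). That is 57.1% and 52.4% called, beside 42.6% and 42.3% of all tested genes. LIG1, the ligase that seals the repaired strand, fell by 0.31 under DMSO (edgeR adjusted p = 5.41e-05). POLD3, a subunit of the polymerase that fills the gap, fell by 0.31 under temozolomide (edgeR adjusted p = 3.56e-05), as did the DNA-bending protein HMGB1 by 0.24 (edgeR adjusted p = 1.74e-05). PMS1, a relative of PMS2, rose by 0.44 under DMSO and 0.34 under temozolomide (edgeR adjusted p = 3.36e-06 and 7.52e-05), opposite in direction to PMS2. RPA1, which coats single-stranded DNA, rose by 0.18 and 0.16 (edgeR adjusted p = 0.000305 and 0.000928). In control cells 23.8% of these 21 genes were called with temozolomide, and in knockdown cells 9.52%, beside 27.5% and 22.3% of all genes. Temozolomide lowered 3 and raised 2 of these 21 genes in control cells, and lowered 2 and raised 0 in knockdown cells. The latter were PMS1 (-0.21, edgeR adjusted p = 0.0118) and the polymerase subunit POLD2, which fell in both (-0.25 and -0.12, edgeR adjusted p = 4.48e-05 and 0.0268), and the exonuclease EXO1 rose in control cells (0.14, edgeR adjusted p = 0.0114).

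Among 23 other base excision and strand break genes, all tested, 3 fell and 1 rose with knockdown under DMSO, and 2 fell and 5 rose under temozolomide. That is 17.4% and 30.4% called, beside 42.6% and 42.3% of all tested genes. MBD4, a glycosylase for mispaired thymine, fell by 0.22 under DMSO (edgeR adjusted p = 0.00267), and TDG, another thymine glycosylase, fell by 0.18 under temozolomide (edgeR adjusted p = 0.00302). APEX2, the second abasic endonuclease of the cell, rose by 0.35 with knockdown under temozolomide (edgeR adjusted p = 0.000847), while TDP1, which cleans blocked strand ends, rose by 0.27 (edgeR adjusted p = 0.000486). With the drug 3 fell and 1 rose in control cells, and 1 fell and 4 rose in knockdown cells. These were 17.4% and 21.7% of the 23 genes, beside 27.5% and 22.3% of all tested genes. APEX2 fell by 0.34 in control cells (edgeR adjusted p = 0.00228), beside the fall of APEX1. In knockdown cells, where APEX1 also fell, APEX2 had 0.05 and was not called (edgeR adjusted p = 0.695). UNG, the uracil glycosylase, fell by 0.20 in control cells (edgeR adjusted p = 0.00632) and the glycosylase NEIL3 rose by 0.26 in knockdown cells (edgeR adjusted p = 0.00398). Of 5 other direct-reversal genes 1 was called with knockdown under DMSO (ASCC3, a helicase that works with the ALKBH3 demethylase, 0.11, edgeR adjusted p = 0.0183). Its partner ASCC2 rose by 0.17 with knockdown under temozolomide and fell by 0.15 with temozolomide in control cells (edgeR adjusted p = 0.00273 and 0.0162), and 0 were called for temozolomide in knockdown cells. Called shares of these 5 genes were 20%, 20%, 20% and 0% in the 4 comparisons, beside 42.6%, 42.3%, 27.5% and 22.3% of all tested genes. The difference between the responses was called for 0 of the 49 other genes of the 3 lists in edgeR, beside 1.05% of all tested genes.

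**Figure D4:**
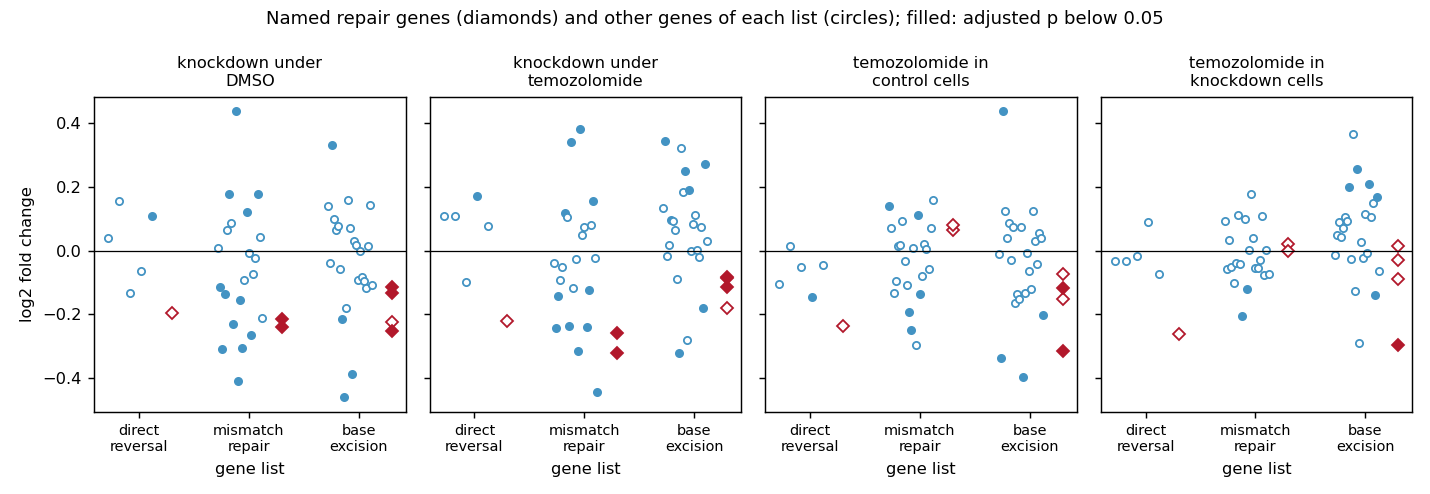
Log2 fold changes of the genes named in the rule (red diamonds) and of the other genes of the 3 repair lists (blue circles) in 4 comparisons, filled where the edgeR adjusted p is below 0.05. The diamonds of mismatch repair lie below 0 in both knockdown panels, while the circles of that list lie on both sides of 0.

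Genes of S phase, when several repair genes are transcribed, were counted beside these results. Of 20 such genes, 9 fell and 4 rose with knockdown under DMSO (median -0.09), and 5 fell and 3 rose with knockdown under temozolomide (median 0.03). Temozolomide lowered 9 and raised 2 in control cells (median -0.09) and lowered 5 and raised 5 in knockdown cells (median -0.05). Of these 20 genes 65%, 40%, 55% and 50% were called in this order, beside 42.6%, 42.3%, 27.5% and 22.3% of all tested genes. The summed level of the 20 genes was 3730 to 3812 CPM in control DMSO, 3705 to 3771 in knockdown DMSO, 3540 to 3653 in control temozolomide and 3703 to 3765 in knockdown temozolomide. The part of the cell cycle in the changes of the repair genes was not tested.

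The genes whose pattern over the 12 libraries was most like each called repair gene were found by the root mean square difference in log2 CPM, each gene centred on its own mean, among 10572 other genes with a mean of at least 5 CPM. For MSH6, whose own root mean square deviation was 0.12, these were HACD2, a fatty acid elongation enzyme (difference 0.0239), and the chromatin ATPase ATAD2 (0.0276). For APEX1, with a deviation of 0.17, they were the glycolytic enzymes PFKP (0.0422) and ENO1 (0.0464). For PARP1, with 0.07, they were the RNA-binding protein HNRNPF (0.0233) and the phosphatase PTPN1 (0.0245). PMS2 and XRCC1, which deviated by 0.16 and 0.12, had looser matches, ZKSCAN1 (0.0615) and PIP4K2C (0.0628) for PMS2 and BSG (0.055) and TBL1X (0.0594) for XRCC1. This likeness is a description of 12 libraries in 4 groups.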

How the data were processed

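Poly(A) RNA of 12 U251 libraries (Illumina NovaSeq, oligo-dT selection, per the labels' protocols) was analysed from 2 deposited tables. One gives the authors' estimated counts per gene (10.7% to 12% of a library's values are not whole), and the second table holds FPKM computed by the authors. The tools named in the submitters' processing notes, without their roles, are RSEM, HISAT2, StringTie 1.3.1, Bowtie2 2.2.8 and fastp 0.18.0. The genome build is not given in the sources used here.

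Estimated counts were rounded and fitted in R 4.3.3 with edgeR 4.0.16: filterByExpr defaults (12821 of 20289 genes kept), TMM scaling, 4 group means over all 12 libraries, quasi-likelihood tests, and Benjamini-Hochberg adjustment over all tested genes. Each SE comes from the fold change and its F statistic. The procedure was tested on simulated data. Levels between genes were compared in the deposited FPKM, and limma 3.58.1 on log2(FPKM + 1) and DESeq2 1.42.0 were alternatives, beside other scalings and filters, a replicate block, leaving out each library, and a per-library spline correction for transcript GC content, chosen after seeing the data. The genes and lists were chosen with earlier results of these data known. Named genes are the 8 genes, CD44, up to 2 called genes per list, comparison and direction with the smallest p (a part of which is printed), and the 2 genes most like each called gene. Overlapping and neighbouring genes were named for their position.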

Additional observations from a re-analysis of the deposited data

How the results depend on the processing

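Over 35 gene results and 795 alternative values, 0 called values changed sign. Of 12 called results 5 kept their call under each alternative run: MSH6 with knockdown under either treatment, PMS2 with knockdown under temozolomide, and APEX1 with temozolomide in either kind of cell. Of 5 genes called for knockdown under DMSO, 3 were called with library totals alone, and 1 with limma on log2(FPKM + 1), on log2(FPKM + 0.1) and on unfiltered FPKM. For knockdown under temozolomide 4 became 2 with library totals and with each FPKM fit. For temozolomide in knockdown cells 1 became 2 with relative log expression factors, DESeq2, the correction for GC content (chosen after seeing the data) and the replicate number as a block, PARP1 being added. The replicate block changed no other call. Deviations of same-numbered libraries correlated at -0.08 to 0.14 over 18 pairs, and for 6 of 12 libraries the best match had their number. With 3 libraries per group these values cannot decide whether the numbers pair the libraries. Leaving out 1 library at a time gave 3 to 6, 2 to 4, 1 to 2 and 1 to 2 called genes in the 4 comparisons in the order of the report, and 0 for the difference. The low-count filters and fits to only the groups compared changed no call. Over all genes, the difference had 135 calls, and 337 with DESeq2, 546 without a filter, 222 with the block, 35 with the GC correction, 0 to 3 with FPKM and 19 to 395 with 1 library left out. FPKM lowered the count for temozolomide in knockdown cells from 2854 to 1875 at the least. The cause of these shifts was not tested. Counting errors were highest for ALKBH2, MPG and XRCC1, at 7.38%, 6.66% and 5.12%, beside spreads within groups of 9.25%, 11.5% and 5.7%.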

Other observations

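PMS2 and APEX1 each start close to a gene on the opposite strand. AIMP2, a scaffold of tRNA synthetases that starts beside PMS2, fell with temozolomide in control cells by 0.29 and in knockdown cells by 0.26 (edgeR adjusted p = 0.000452 and 0.00240), where PMS2 had 0.08 and -0.0018 and was not called. With knockdown AIMP2 had -0.06 under DMSO and -0.02 under temozolomide (edgeR adjusted p = 0.413 and 0.809), where PMS2 fell. OSGEP, a tRNA-modifying enzyme that starts beside APEX1, had 0.04 and 0.12 with temozolomide in control and knockdown cells (edgeR adjusted p = 0.772 and 0.402), where APEX1 fell. With knockdown OSGEP had -0.17 under DMSO and -0.10 under temozolomide (edgeR adjusted p = 0.141 and 0.4), beside -0.13 and -0.11 for APEX1. NPRL3, which shares exons with MPG, fell by 0.28 with temozolomide in control cells (edgeR adjusted p = 0.0115), where MPG had -0.07. With knockdown under DMSO NPRL3 had -0.17 (edgeR adjusted p = 0.0879) and MPG -0.22, neither of them called, and with unresolved strand the reads of their shared exons cannot be told apart. These neighbours were chosen for their position, and the difference between the genes of a pair was not tested.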
